A study of Mus musculus with 8 samples.

Results

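The translation initiation factors (eIFs) and elongation factors (eEFs) are the proteins that load mRNAs and the initiator tRNA onto ribosomes and then move the ribosome along the message. The genes described here are the 68 of 24552 gene symbols in the count table that begin with Eif or Eef followed by a digit, a rule that uses names and no measured value. It also takes in proteins that bind, phosphorylate or methylate these factors, and a few genes named for them by convention. The data come from exorbital lacrimal glands (LGs), the glands that secrete the aqueous layer of the tear film, of female C57BL/6J mice aged 10 to 11 months with no genetic modification named in the labels. In one arm 4 mice ate ad libitum (AL), and in the other 4 mice were held on a 40% calorie restriction (CR) for 4 months from 6 to 7 months of age. CR mice received their food once a day just before the dark phase, so the diets differ in the timing of meals as well as in calories. The study describes 2 cohorts with different chows, and which cohort each library came from is not given in the labels. In the second cohort the chow of CR mice was enriched by 40% in vitamins and micronutrients over that of AL mice. There the arms differed in the food itself as well. Each library is named here by diet and replicate number, and each p-value takes these libraries as its units.

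Initiation begins when eIF2 carries the initiator tRNA to the small ribosomal subunit together with eIF1, eIF1A, eIF3 and eIF5, and eIF2 is then recharged with GTP by its exchange factor eIF2B. The eIF4 factors bind the cap of the mRNA and unwind its leader, and the eIF4E binding proteins compete with eIF4G for the cap-binding protein eIF4E unless the kinase mTORC1 phosphorylates them. A family of 4 kinases slows initiation by phosphorylating the alpha subunit of eIF2, and eEF2 kinase slows elongation by phosphorylating eEF2. Both arms of control are known for responding to nutrients and stress, and the LG is a tissue with a high output of secreted protein.

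Libraries were made from the 3′ ends of polyadenylated RNA, so a transcript gives about 1 read whatever its length, and the level of a gene is its count per 1000000 counts of the library (CPM) after scaling by relative log expression (RLE) factors, without division by length. Total counts ranged from 12051881 to 22156511 per library, and a floor of 3 counts was 0.152 to 0.231 CPM. Reads carry no molecular identifiers, so the floor covers counting error only. Together the 68 genes took between 0.368 and 0.610% of the counts of a library, with AL replicate 1 lowest and CR replicate 3 highest.

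The 9 markers of LG acinar and ductal epithelium were all counted, with summed levels of 10324 to 25553 CPM in AL and 8643 to 31122 CPM in CR. Of the 9, 1 was called lower, Pigr (the polymeric immunoglobulin receptor), at 396 ± 43.4 CPM in AL and 205 ± 42.6 CPM in CR without overlap (log2 fold change -0.95, edgeR adjusted p = 0.0380). The summed level of the 6 parotid gland markers did not overlap between diets, at 12027 to 41197 CPM in AL and 54367 to 297065 CPM in CR, and 3 of the 6 were called higher. Among the CR libraries replicate 4 stood apart in this sum, at 54367 CPM against 242556 to 297065 CPM in the others, and its LG markers summed to 31122 CPM against 8643 to 13473 CPM. As a mean log2 level over the 6 parotid markers it was also the lowest of the CR libraries, at 10.6 against 11.3 to 14.0. Summed levels of the 5 white adipose markers were 4.37 to 11.0 CPM in AL and 17.5 to 55.2 CPM in CR, with 1 of them called higher. In the opposite direction, the 5 macrophage markers summed to 58.6 to 191 CPM in AL and 35.6 to 72.9 CPM in CR with 1 called lower, the 6 B and plasma cell markers to 12.5 to 37.2 and 6.07 to 12.6 CPM, and the 5 T cell markers to 1.62 to 8.53 and 0.778 to 1.72 CPM. The 5 fibroblast markers summed to 132 to 209 CPM in AL and 117 to 175 CPM in CR, with 2 called lower. The 6 skeletal muscle markers summed to 0.859 to 12.5 CPM in AL and 2.19 to 62.2 CPM in CR, and the 5 neuron and glia markers, of which Snap25 was at 0, stayed at or under 3.41 CPM. The part of these cell types in the results on translation factors was not tested. A parotid score is added to the model below, but it did not overlap between diets, so score and diet cannot be told apart there. In bulk tissue, fewer cells of a type and less RNA per cell cannot be told apart.

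Of the 68 genes, 61 passed the filter on low counts and were tested. Their mean levels ranged from 0.718 CPM for Eef1akmt2, a methyltransferase of eEF1A, to 579 CPM for Eef2, with a median of 33.3 CPM. The 5 most counted were Eef2, Eef1a1, Eif3a, Eif5b and Eif4g2. Another 5 genes were listed at 0 in every library. They were Eif2s3y (the Y-linked copy of the eIF2 gamma subunit, in tissue from females), Eif3j1, Eif3j2, Eif4e1b (an oocyte form of eIF4E) and the readthrough gene Eef1akmt4-ece2. Of the 3′ windows of Eif3j1 and Eif3j2, 7.74% and 85.7% are shared with 1 other gene. Exons of each also overlap 1 other annotated gene on the same strand, Gm47314 and Gm27325. How the counting treated reads that fit several genes is not given, so the floor, the upper limit that a count of 0 allows, need not bound their level. The remaining pair, Eef1a2 and Eif5a2, are the tissue-restricted relatives of Eef1a1 and Eif5a and had 13 and 7 counts in all 8 libraries together. Eef1a2 had 2, 0, 0 and 0 counts in AL, giving replicates in order, and 0, 5, 0 and 6 in CR. Eif5a2 had 0, 5, 1 and 0 counts in AL and 0, 1, 0 and 0 in CR. Neither difference passed an exact two-sided permutation test over the 8 libraries (p = 0.429 for each).

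Of the 61 tested genes only Eif4ebp1, which was higher in CR, was called by edgeR's quasi-likelihood test at both thresholds of the study, a Benjamini-Hochberg adjusted p below 0.05 together with at least a 1.5-fold change. The same rule called 1.98% of all 11211 genes tested, 1.2% higher and 0.785% lower, beside 1 call among the 61 (1.64%). This background depends on single libraries. It ran from 0.537% (without AL replicate 2) to 1.05% (without CR replicate 1) when any of AL replicates 1 to 3 or CR replicates 1 to 3 was left out, and was 1.46% without AL replicate 4, 6.14% without CR replicate 4 and 6.24% with the replicate number as a block. The factors called in those fits were Eif4ebp1 or none. At an unadjusted p under 0.05 there were 7 genes, all higher in CR, namely Eif4ebp1, Eif3b, Eif2ak2, Eef2k, Eif6, Eef2 and Eif1ad. That is 11.5% of the 61, against 8.62% of all genes tested that were higher at this threshold. None of the 61 was lower at an unadjusted p under 0.05, against 8.1% of all genes tested. Of 17 alternative settings, 4 counted a factor as lower at that threshold, namely Eif4g2 with DESeq2, limma voom and the fit without CR replicate 4, Eif2s1 with limma voom, and Eif3l with the parotid score described below. Without CR replicate 3, 4 factors in place of 7 were higher at an unadjusted p under 0.05. In 7 genes all CR libraries were higher than all AL libraries (11.5%, against 4.58% of all genes tested), and these were Eif4enif1 and the genes just listed other than Eif1ad. The reverse was true of none, against 5.2% of all genes tested. Without CR replicate 4, a count added after the data were seen, 8 factors did not overlap upwards (13.1%, against 9.86% of all genes), Eef1g being the addition, and 1, Eif4g2, did downwards (1.64%, against 8.92%).

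**Figure D1:**
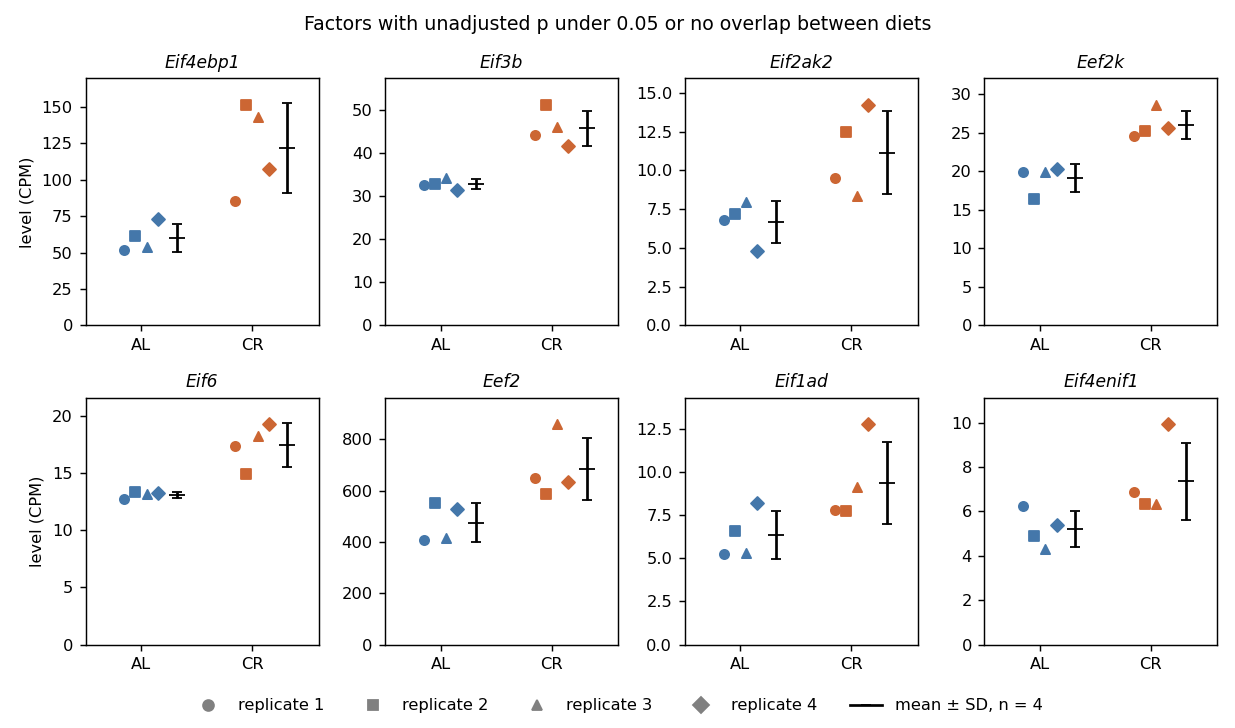
Level in CPM of the 8 factors with an unadjusted p under 0.05 or with no overlap between diets, with 1 panel per gene, AL libraries in blue and CR libraries in orange, marker shapes for replicate numbers, and bars for the mean ± SD (n = 4). All y axes start at 0, and the CR libraries lie above every AL library in each panel but that of Eif1ad, where AL replicate 4 is above CR replicates 1 and 2.

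The log2 fold changes of the tested factors ran from -0.44 to 1.02. Of the 61, 42 (68.9%) had a log2 fold change above 0, against 51.1% of all genes tested. Their median was 0.12 and that of all genes tested was 0.01. The median of the factors was 0.20 without AL replicate 4 and 0.30 with the parotid score in the model. The spread of log2 CPM within diets was also smaller, with a median SD of 0.31 over the factors and 0.41 over all genes tested. Looked at by library, 15 of the 61 lay above every AL library in CR replicate 1 (24.6%), 21 in CR replicate 2 (34.4%), 25 in CR replicate 3 (41.0%) and 22 in CR replicate 4 (36.1%). Over all genes tested, these shares were 25.3, 24.9, 25.4 and 24.4%. Below every AL library lay 12, 10, 5 and 9 of the 61 (19.7, 16.4, 8.2 and 14.8%), against 24.7, 25.8, 24.5 and 22.8% of all genes tested. By these counts CR replicate 3 was the most and CR replicate 1 the least shifted of the CR libraries. The factors share ribosome-related functions and are not independent of each other, and this shift has no test of its own. With 1 library left out, 18 of the 61 changed sign in at least 1 of the 8 fits, 32 kept their sign but moved by over 1.5 times in at least 1, and 11 stayed within that range, among them Eif4ebp1, Eif3b, Eif2ak2, Eef2, Eef2k, Eif6 and Eif4g2.

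**Figure D2:**
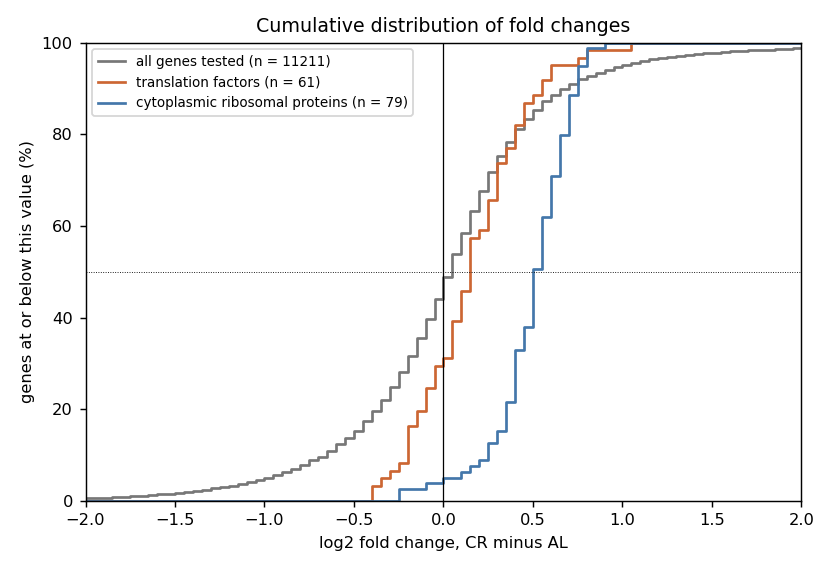
Cumulative percent of genes (y axis) at or below each log2 fold change of CR minus AL (x axis, in steps of 0.05) for the 61 tested translation factors, the 79 tested cytoplasmic ribosomal proteins and all 11211 genes tested. The curve of the translation factors crosses the middle at 0.12, between that of all genes at 0.01 and that of the ribosomal proteins at 0.50.

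The eIF4E binding proteins restrain cap-dependent initiation. In what follows ± after a level is the SD (n = 4) and ± after a log2 fold change is its standard error. Eif4ebp1 (Gene ID 13685, chr8:27260329-27276674, + strand, mm10) encodes 4E-BP1, the best known member. Its levels, here and below in the order of replicates 1 to 4, were 51.6, 61.2, 54.1 and 73.1 CPM in AL, against 85.6, 151, 143 and 108 CPM in CR. The diets did not overlap, and the lowest CR library was replicate 1. The level rose from 59.99 ± 9.62 to 122 ± 30.7 CPM (SD, n = 4 each), which is 1.02 ± 0.21 (standard error) on the log2 scale (edgeR adjusted p = 0.0335). Reads from its 3′ end can be told from those of other genes, as it shares no run of 75 bases with them there. Eif4ebp1 kept both thresholds when AL replicate 4, CR replicate 1 or CR replicate 4 was left out, and lost the adjusted p when AL replicate 1, 2 or 3 or CR replicate 2 or 3 was left out (adjusted p between 0.0933 and 0.116, with log2 fold changes of 0.91 to 1.03). When the mean log2 level of the 6 parotid markers, called the parotid score, was added to the model, Eif4ebp1 had a log2 fold change of 1.31 with a standard error of 0.45 (edgeR adjusted p = 0.432). None of the 11211 genes was called in that fit (1096 at an unadjusted p under 0.05). The score itself ran from 3.86 to 8.49 in AL and from 10.6 to 14.0 in CR, without overlap, so the fit cannot tell score and diet apart. In the same fit the log2 fold changes of the 6 other factors that had an unadjusted p under 0.05 without the score were 1.01 for Eef2 (0.52 without it), 0.67 for Eif6 (0.41), 1.52 for Eif1ad (0.56), 0.54 for Eef2k (0.44), 0.38 for Eif2ak2 (0.74) and 0.28 for Eif3b (0.48), with adjusted p from 0.376 to 0.828.

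**Figure D3:**
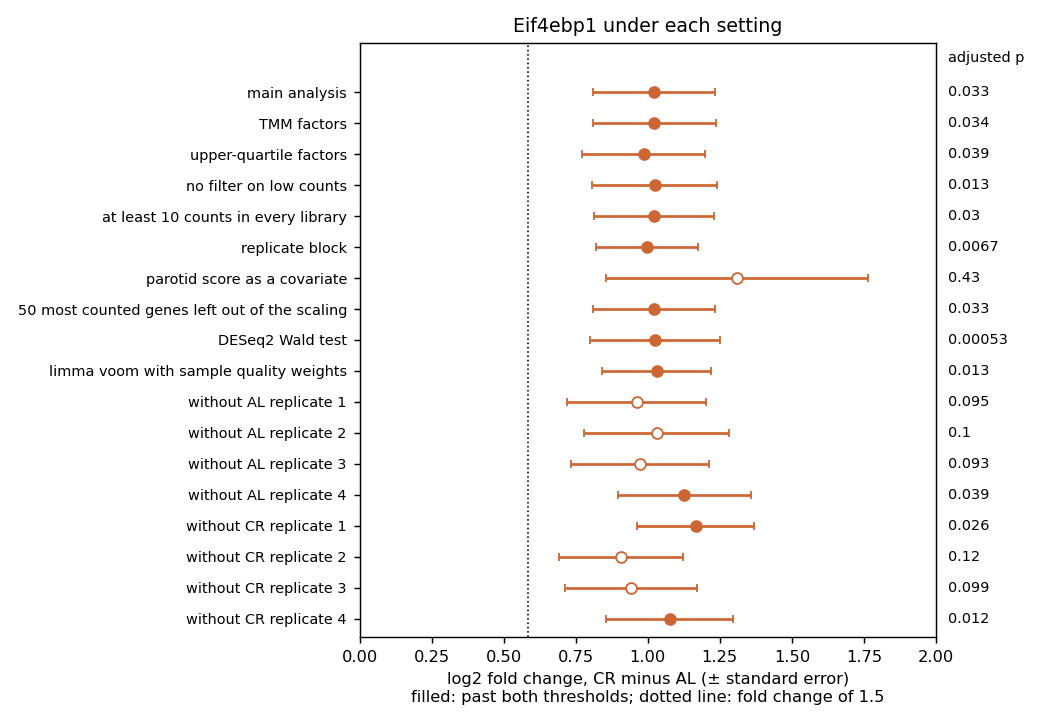
Log2 fold change of Eif4ebp1, CR minus AL, with its standard error (x axis) under the main analysis and 17 alternatives (rows), with the adjusted p at the right. Filled points passed both thresholds, the dotted line marks a fold change of 1.5, and all estimates lie between 0.91 and 1.31.

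Eif4enif1 encodes 4E-T, which carries eIF4E into the nucleus and into mRNA storage granules. Its levels were 6.24, 4.91, 4.30 and 5.38 CPM in AL and 6.86, 6.34, 6.32 and 9.94 CPM in CR. The diets did not overlap, by a gap of 0.0745 CPM between AL replicate 1 and CR replicate 3, and the log2 fold change of 0.50 ± 0.25 (standard error) did not pass the test (adjusted p = 0.335). Eif4ebp3 was counted at 4.57 ± 0.870 CPM in AL and 5.40 ± 1.88 CPM in CR, with a log2 fold change of 0.24 ± 0.30, and 81.8% of its 3′ windows are shared with 1 other annotated gene.

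Eif4ebp2, the second 4E-BP, varied far more within diets than between them. It was at 59.9, 110, 17.4 and 239 CPM in AL and 17.0, 123, 94.2 and 234 CPM in CR, so that the highest library was 13.7 times the lowest in each diet. The log2 fold change was 0.14 with a standard error of 0.72. With 1 library left out it ran from -0.45 (without CR replicate 4) to 0.91 (without AL replicate 4). It was 2.75 with the parotid score in the model (edgeR unadjusted p = 0.0484, adjusted p = 0.505). The SD of its log2 CPM within diets was 1.59, the largest among the 61 factors, and 0.589% of all genes tested had one at least as large.

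The eIF2 alpha kinases each respond to a different stress. Eif2ak2 (PKR, activated by double-stranded RNA; Gene ID 19106, chr17:78852564-78882573, − strand) was at 6.78, 7.18, 7.94 and 4.77 CPM in AL and 9.48, 12.5, 8.36 and 14.2 CPM in CR. The diets did not overlap, though AL replicate 3 and CR replicate 3 were close. Its log2 fold change of 0.74 ± 0.24 (standard error) did not pass over all genes (adjusted p = 0.139), and had an unadjusted p of 0.469 with the parotid score in the model. The other three had log2 fold changes of 0.25 ± 0.21 for Eif2ak1 (HRI, sensitive to heme), 0.21 ± 0.18 for Eif2ak3 (PERK, a sensor of endoplasmic reticulum stress) and 0.06 ± 0.32 for Eif2ak4 (GCN2, a sensor of uncharged tRNA), each overlapping between diets. Eif2ak3 was the most counted of the 4, at 16.4 ± 2.02 CPM in AL and 19.0 ± 2.53 CPM in CR, and Eif2ak4 the least, at 2.85 ± 0.710 and 2.96 ± 0.563 CPM.

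The elongation factors include the most counted genes of the set. Eef2 (Gene ID 13629, chr10:81176631-81182498, + strand), the GTPase that moves the ribosome by a codon, was at 408, 551, 415 and 529 CPM in AL and 650, 589, 860 and 633 CPM in CR. Every CR library was above every AL library, and CR replicate 3 was the highest. The log2 fold change was 0.52 ± 0.22 (adjusted p = 0.259), or 0.40 without CR replicate 3. Eef1a1, which delivers aminoacyl-tRNAs, was at 265, 471, 184 and 570 CPM in AL and 220, 654, 409 and 547 CPM in CR. It thus spanned 3.09-fold within AL and 2.97-fold within CR, and its log2 fold change was 0.30 ± 0.39. Of the 3′ windows of Eef1a1, 32.2% are shared with 14 other annotated genes, 13 of them pseudogenes, so its count is uncertain. The subunits of its exchange factor were steadier, with log2 fold changes of 0.08 ± 0.18 for Eef1b2, 0.12 ± 0.19 for Eef1d and 0.24 ± 0.16 for Eef1g. Eif5a, which carries hypusine and helps at difficult peptide bonds, had a log2 fold change of 0.31 ± 0.25. All 6 tested elongation factors had a log2 fold change above 0, with a median of 0.27, and none passed the test.

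Eef2k (Gene ID 13631, chr7:120842831-120907450, + strand), the kinase that inhibits eEF2, was at 19.9, 16.4, 19.9 and 20.3 CPM in AL and 24.5, 25.2, 28.6 and 25.5 CPM in CR. The diets were separated by a gap of 4.20 CPM, larger than the SD of 1.81 CPM in AL or 1.80 CPM in CR. Its log2 fold change was 0.44 ± 0.16 (adjusted p = 0.173), so both the factor and its kinase were above their AL range in all 4 CR libraries without passing the test. Among the methyltransferases of elongation factors, Eef2kmt had a log2 fold change of 0.27 ± 0.24, Eef1akmt4 of 0.58 ± 0.37 (0.24 without CR replicate 2 and -0.81 with the parotid score), Eef1akmt1 of -0.09 ± 0.44 and Eef1akmt2 of -0.31 ± 0.72. The 3 eEF1A methyltransferases were rare, at mean levels of 0.718 to 2.94 CPM.

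Promoter windows were available for 53 of the 68 genes and were searched for short motifs, in the 250 bases before and 50 bases after the annotated start (RefSeq, GRCm38.p6). The search covered both strands, except that the pyrimidine run was sought on the strand of the transcript alone, and a gene with several starts counted if any of them held the motif. The E-box CACGTG was present in 14 of the 53 (26.4%), among them Eef2 and Eef2k, against 8.09% of all genes with a promoter window and 12.1% of those tested here. A pair of the 14, Eef1akmt4 and its readthrough gene, lie at the same locus. Other motifs were TGACGTCA in 1 of the 53 (1.89%, in Eef2, against 2.03% of all genes with a window and 3.66% of those tested), TATAAA in 5 (9.43%, against 15.7 and 8.94%), an interferon-type element (GAAA, any 2 bases and GAAA again) in 4 (7.55%, against 3.99 and 3.66%), and a run of at least 8 pyrimidines between 25 bases before and 35 after the start in 16 (30.2%, against 24.9 and 25.1%). The median log2 fold change of the tested factors with and without each was 0.22 (12 genes) and 0.06 (36) for the E-box, 0.25 (4) and 0.11 (44) for TATAAA, 0.08 (4) and 0.11 (44) for the interferon-type element, and 0.06 (14) and 0.12 (34) for the pyrimidine run. The stretches from 60 bases before to 30 bases after the start of Eef2, Eef2k and Eif2ak2 are shown as examples, with capitals marking every motif. In these genes every CR library was above the AL range, and each stretch holds a motif. Eif3b and Eif4enif1 did not overlap between diets either and have a TATAAA motif and a pyrimidine run in their promoter windows, which are not shown. In Eef2 (chr10:81176571-81176660, + strand) the capitals mark, in order, the E-box, the TATAAA motif, the motif TGACGTCA and a pyrimidine run. In Eef2k (chr7:120842771-120842860, + strand, the first of 3 annotated starts) they mark the E-box, while its pyrimidine run lies at the third start and is not shown, and in Eif2ak2 (chr17:78882543-78882632, − strand) the interferon-type element. Eif4ebp1 and Eif6 are not among the promoters used.
Eef2: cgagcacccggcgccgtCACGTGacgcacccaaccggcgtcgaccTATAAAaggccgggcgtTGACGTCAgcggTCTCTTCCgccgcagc
Eef2k: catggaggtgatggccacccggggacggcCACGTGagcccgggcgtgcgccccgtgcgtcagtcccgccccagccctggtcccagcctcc
Eif2ak2: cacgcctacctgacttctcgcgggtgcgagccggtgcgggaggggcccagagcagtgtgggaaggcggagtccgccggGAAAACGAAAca
A match of letters is no evidence that a factor binds there, and no binding was measured in these mice.

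The eIF3 complex is the scaffold of the initiation machinery, and 12 of its 14 listed genes were tested. Eif3b (Gene ID 27979, chr5:140419328-140443360, + strand), a core subunit, was the steadiest of the genes at an unadjusted p under 0.05. It was at 32.7, 32.8, 34.3 and 31.6 CPM in AL and 44.2, 51.2, 46.0 and 41.7 CPM in CR. The AL libraries spanned 2.77 CPM, and the lowest CR library was 7.38 CPM above them. Its log2 fold change was 0.48 ± 0.15 (adjusted p = 0.116). It kept an unadjusted p under 0.05 in each of the 8 fits that left out 1 library, where its adjusted p ran from 0.0683 to 0.269. With the parotid score in the model its unadjusted p was 0.402. Of the 12 subunits, 10 had a log2 fold change above 0, with a median of 0.22 and a range from -0.23 for Eif3d to 0.48 for Eif3b. Although the subunits join in equal numbers in the complex, their transcript counts ranged from 17.8 CPM for Eif3m to 332 CPM for Eif3a, the largest subunit, as means of 8 libraries. Differences between genes in 3′-end counts include how well each 3′ end is annotated and shared, and 27.9% of the 3′ windows of Eif3m are shared with a pseudogene.

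Factors that select the start codon and deliver the initiator tRNA were divided in direction. Of 11 tested, 5 had a log2 fold change above 0 and 6 below, with a median of -0.08. Eif1ad, whose product has an eIF1A-like domain (Gene ID 69860, chr19:5366741-5371526, + strand), was at 5.24, 6.56, 5.32 and 8.22 CPM in AL and 7.78, 7.76, 9.10 and 12.8 CPM in CR. The diets overlapped through AL replicate 4, and its log2 fold change was 0.56 ± 0.25 (adjusted p = 0.282), and 0.37 without CR replicate 4. Eif2s1, the eIF2 alpha subunit on which the kinases act, had a log2 fold change of -0.44 ± 0.29, which was -0.23 without CR replicate 3 and -0.30 without CR replicate 1. It was at 16.1, 13.4, 13.6 and 14.1 CPM in AL and 7.43, 14.9, 5.63 and 14.0 CPM in CR. Thus CR replicates 1 and 3 lay below the AL range and CR replicates 2 and 4 within it. Eif2d, an alternative carrier of the initiator tRNA, had a log2 fold change of -0.28 ± 0.28. The eIF2 subunits were counted unequally, at 12.4 CPM for Eif2s1, 233 CPM for Eif2s2 and 6.98 CPM for Eif2s3x as means of 8 libraries, and 58.2% of the 3′ windows of Eif2s3x are shared with 2 pseudogenes.

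Of the 5 eIF2B subunits, 2 had a log2 fold change above 0 and 3 below. Eif2b1, the regulatory alpha subunit through which eIF2B senses phosphorylated eIF2, had the second highest log2 fold change of the 61 factors, 0.77 ± 0.38. It was at 1.93, 3.13, 1.31 and 2.79 CPM in AL and 2.69, 4.26, 2.97 and 5.72 CPM in CR. Those ranges overlapped, and the difference did not pass the test (adjusted p = 0.335). The other subunits lay between -0.23 and 0.07.

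Both factors that govern the joining of the ribosomal subunits were tested. Eif6 (Gene ID 16418, chr2:155819832-155826925, − strand), which holds large subunits back from joining, was at 12.7, 13.3, 13.1 and 13.2 CPM in AL and 17.3, 14.9, 18.3 and 19.3 CPM in CR. The AL libraries were nearly alike, at 13.1 ± 0.267 CPM, and every CR library was higher. The log2 fold change was 0.41 ± 0.16 (adjusted p = 0.222). Eif5b, the GTPase that promotes joining, was at 296 ± 12.9 CPM in AL and 295 ± 37.1 CPM in CR, a log2 fold change of -0.002 with a standard error of 0.18. Eef1e1, a component of the complex of aminoacyl-tRNA synthetases, had a log2 fold change of 0.04 ± 0.49, and Eif4a3, a helicase of the exon junction complex, of -0.13 ± 0.17.

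**Figure D4:**
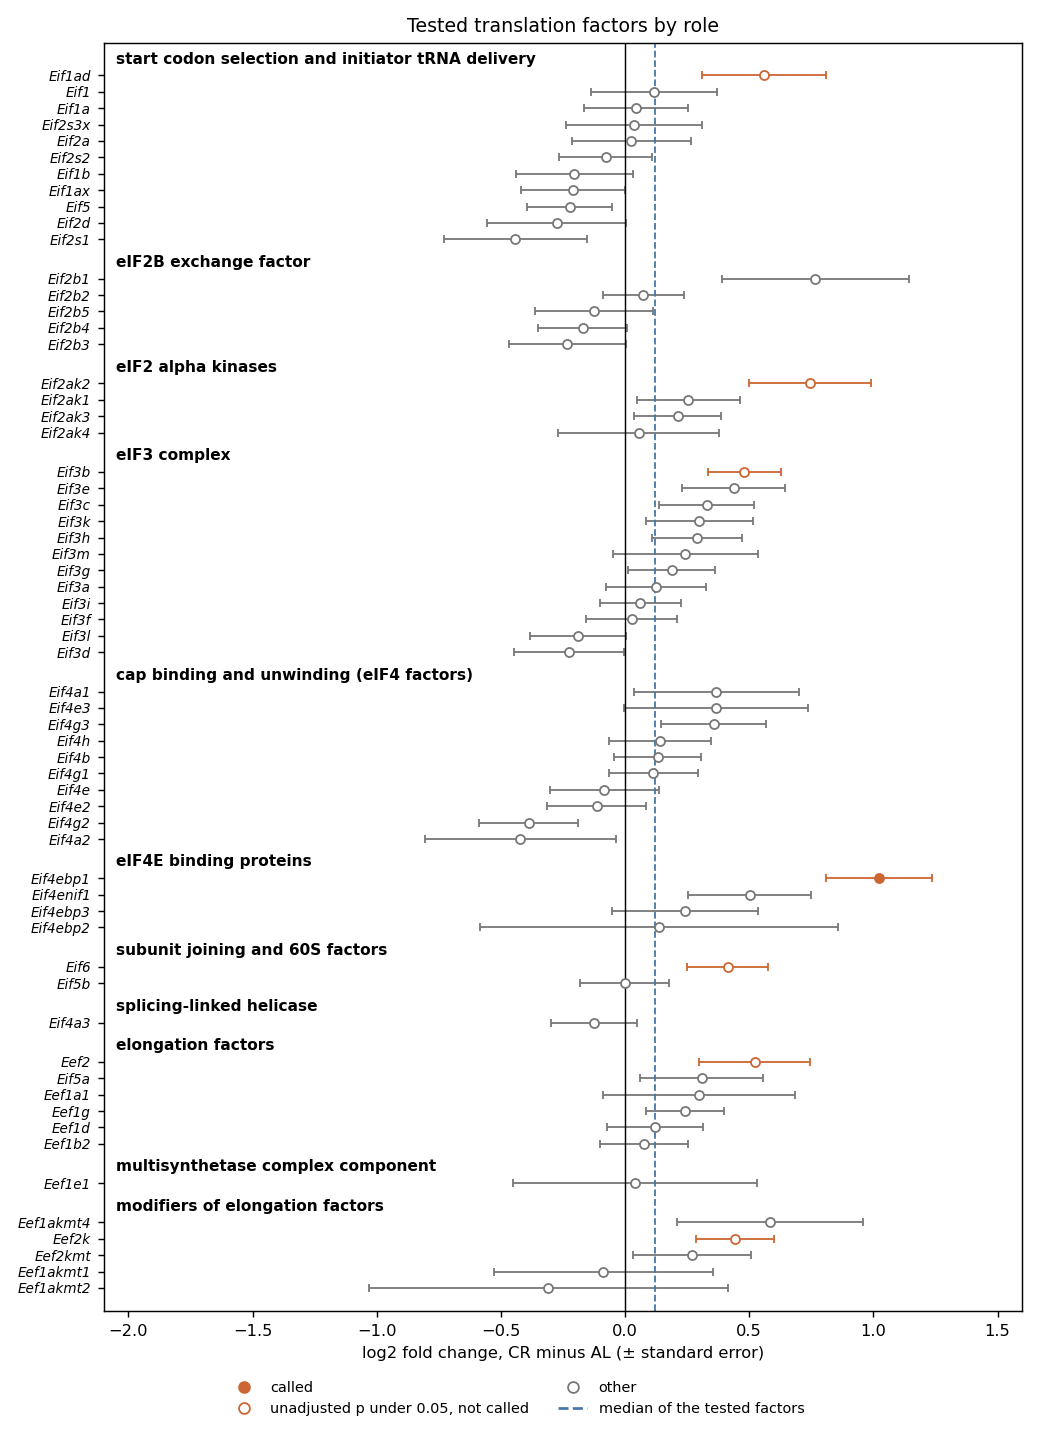
Log2 fold change, CR minus AL, with its standard error (x axis) for each of the 61 tested factors (y axis), grouped by role. Eif4ebp1 is the filled point, the 6 other factors with an unadjusted p under 0.05 are open orange points to the right of 0, and the dashed line is the median of 0.12.

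Among the 10 tested factors that bind the cap and unwind the leader, 6 had a log2 fold change above 0 and 4 below, with a median of 0.12 and a range from -0.42 to 0.37. None had an unadjusted p under 0.05. Eif4a2, a helicase closely related to Eif4a1, was at -0.42 ± 0.38 and Eif4g2 at -0.39 ± 0.20 (adjusted p = 0.366). The value of Eif4a2 ran from -0.68 (without AL replicate 3) to -0.11 (without AL replicate 4) with 1 library left out and was 0.13 with the parotid score. Eif4g2 encodes DAP5, a relative of eIF4G that lacks the eIF4E-binding region. It was at 341, 280, 264 and 256 CPM in AL and 202, 189, 197 and 283 CPM in CR. Only CR replicate 4 lay within the AL range. Without that library its log2 fold change was -0.54 (adjusted p = 0.12).

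Because a ratio of 2 genes within a library does not depend on the scaling factor, 6 ratios of related factors were compared by exact two-sided permutation tests with Benjamini-Hochberg adjustment over the 6. With 1 count added to each gene, the ratios of Eef1a2 and Eif5a2, at 13 and 7 counts in all, do depend on the depth of a library. The log2 ratio of Eif4g2 to Eif4g1 was 0.74, 0.50, 0.44 and 0.16 in AL and 0.12, -0.15, -0.24 and 0.09 in CR. The diets did not overlap, and the difference was -0.50 (p = 0.0286, the smallest that 4 against 4 allow, adjusted p = 0.171 by the exact permutation test). The log2 ratio of Eif4a2 to Eif4a1 averaged -0.64 ± 0.44 in AL and -1.35 ± 0.36 in CR (SD, n = 4), overlapping between diets (exact permutation p = 0.0857, adjusted 0.257), and 31.2% of the 3′ windows of Eif4a1 are shared with other genes. The remaining ratios, of Eif4g3 to Eif4g1, Eif5a2 to Eif5a, Eif4ebp2 to Eif4ebp1 and Eef1a2 to Eef1a1, had adjusted p between 0.343 and 0.571 in the exact permutation tests. With 6 ratios and 4 libraries per diet, a single ratio at the smallest p could not pass an adjusted p of 0.05.

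**Figure D5:**
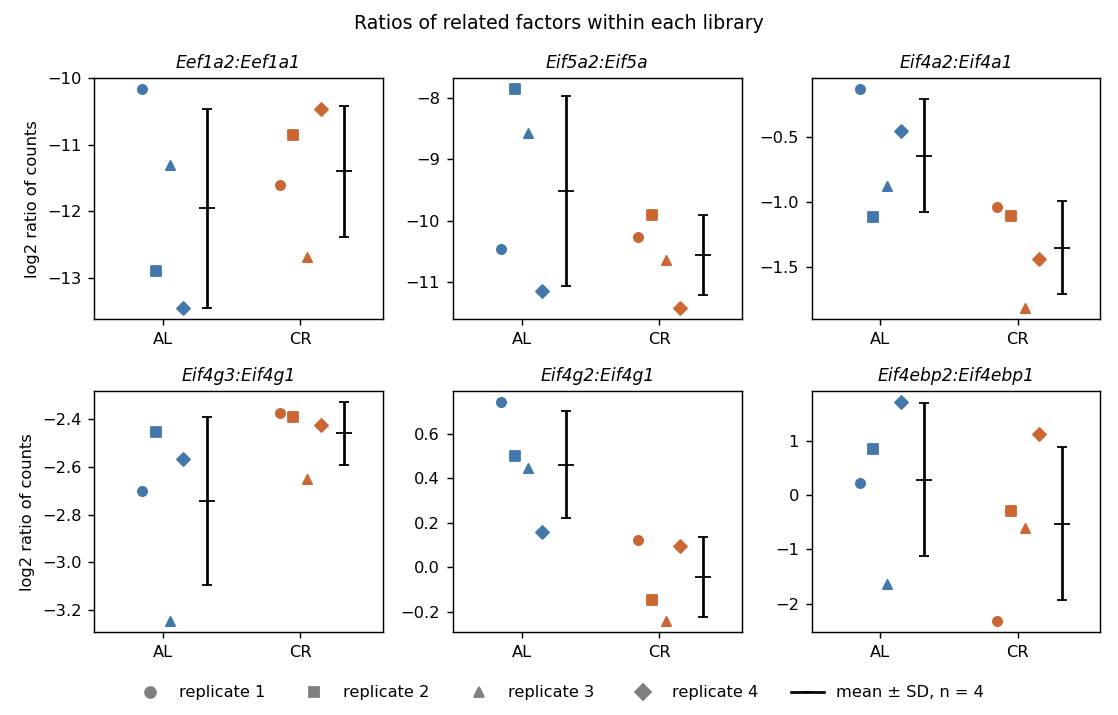
Log2 ratio of counts, with 1 count added to each gene, of 6 pairs of related factors in each library, AL in blue and CR in orange, with bars for the mean ± SD (n = 4) and y axes that differ between panels. The diets are separate for Eif4g2 to Eif4g1, with AL between 0.16 and 0.74 and CR between -0.24 and 0.12, and overlap in the other panels.

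Genes outside the families that act on translation were taken from 6 lists of 49 genes in all, of which 45 were tested. The test called 1 higher and 1 lower (4.44% together, against 1.98% of all genes tested). At an unadjusted p under 0.05, 5 were higher (11.1%, against 8.62%) and 3 lower (6.67%, against 8.1%). Ddit4 (REDD1, an inhibitor of mTORC1) fell, from 37.4, 40.5, 32.7 and 33.8 CPM in AL to 9.83, 11.3, 14.2 and 18.4 CPM in CR. The diets did not overlap, and its log2 fold change was -1.43 with a standard error of 0.21 (adjusted p = 0.00697). Ddit4 was called in each of the 8 fits that left out 1 library, and had a log2 fold change of -1.04 and an adjusted p of 0.468 with the parotid score as a covariate. Mknk2, a kinase of eIF4E, rose from 8.71, 14.5, 12.8 and 19.7 CPM in AL to 30.4, 32.3, 29.2 and 26.9 CPM in CR. The log2 fold change was 1.09 ± 0.23 (adjusted p = 0.0335). Mknk2 was called only without AL replicate 4 or CR replicate 4 among those 8 fits, and its adjusted p ran up to 0.116 when CR replicate 2 was left out. Its log2 fold change ran from 0.93 to 1.30 over those fits and was 1.81 with the parotid score (edgeR unadjusted p = 0.00224, adjusted p = 0.329).

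Within the list of mTORC1 and its regulators, 11 of 12 genes were tested, and 4 had an unadjusted p under 0.05 in either direction (36.4%, against 16.7% of all genes tested). Besides Ddit4, these were Sesn1 (log2 fold change 1.37 ± 0.39), Rheb (0.49 ± 0.22, and 0.30 without CR replicate 4) and Sesn3 (-0.66 ± 0.27). Sestrins are stress-induced inhibitors of mTORC1 and Rheb is its activator. All 8 genes of the list of downstream kinases and repressors were tested, with Rps6kb1, the S6 kinase (0.50 ± 0.16), and Pdcd4, an inhibitor of eIF4A (0.78 ± 0.27), at an unadjusted p under 0.05 beside Mknk2. In the list of hypusine and diphthamide synthesis 6 of 8 genes were tested, and Dph6 was at that threshold (-0.46 ± 0.20). With the parotid score in the model, the unadjusted p of Sesn1, Rheb, Sesn3, Rps6kb1, Pdcd4 and Dph6 was between 0.0700 and 0.321. Log2 fold changes in that fit were 1.33 for Sesn1, 0.48 for Rheb, -0.73 for Sesn3, 0.63 for Rps6kb1 and 0.82 for Pdcd4. Without the score, none of the 6 poly(A)-binding proteins and partners, none of the 6 tested eIF2 phosphatase and kinase regulators and none of the 8 tested recycling and termination factors had an unadjusted p under 0.05. With it, Pabpc4 (edgeR unadjusted p = 0.00162), Pabpn1 (0.0110), Pabpc1 (0.0486), Impact (0.00437), Ppp1r15a (0.0313) and Denr (0.00831) did, and none was called. Pabpc4 was called with the replicate number as a block (log2 fold change 0.91, edgeR adjusted p = 0.0494). Of 79 tested cytoplasmic ribosomal proteins, 75 had a log2 fold change above 0, 35 were higher at an unadjusted p under 0.05 (44.3%, against 8.62% of all genes tested) and none was called, with a median of 0.50, beside the median of 0.12 for the initiation and elongation factors. The number higher at that threshold was 19 without AL replicate 1, and 18 without AL replicate 3 or CR replicate 3. With the parotid score in the model it was 36, with 69 of the 79 above 0 and a median of 0.91. Many ribosomal proteins have processed pseudogenes with near-identical sequence, so single values among them are uncertain.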

How the data were processed

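RNA from LGs of 4 AL and 4 CR mice was sequenced with a 3′-end kit as single reads of 75 bases. Per the labels and the study's methods, cutadapt was used by the authors for trimming, STAR for alignment (mm10) and HTSeq for counting by gene. They deposited raw counts, which were used here, and log2 values. These deposited log2 values could be rebuilt from the counts, divided by RLE size factors with 1 added, to within 0.000124, and played no further part. Tool versions and the handling of reads that map to several places are not given in the sources used here.

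Of 24557 rows, 5 repeated symbols were dropped. Of 24552 genes 16735 had a count, and 11211 passed filterByExpr. CR was compared with AL in edgeR 4.0.16 (R 4.3.3) with RLE factors and quasi-likelihood F tests, and p-values were adjusted by Benjamini-Hochberg across the whole set tested. Standard errors were obtained as the absolute log2 fold change over the root of F. Calls needed an adjusted p below 0.05 and at least a 1.5-fold change, and the biological coefficient of variation was 34.7%. Factors below the filter and ratios were compared by exact two-sided permutation tests. The pipeline was tested on simulated counts.

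Named factors are those called, at an unadjusted p under 0.05 or without overlap between diets, the 5 largest log2 fold changes in each direction, the 5 most counted, and all eIF4E binding proteins, eIF2 alpha kinases, elongation factors and their modifiers. The members, gene lists and tests were chosen with earlier results of these data known. Positions come from GENCODE vM21 on GRCm38, which matched 67 of the 68 genes. Shared windows are runs of 75 bases in the last 600 bases of transcripts. The settings tried besides were upper-quartile and TMM factors, DESeq2 1.42.0, limma voom 3.58.1 with quality weights, no filter, at least 10 counts in every library, the replicate number as a block, the omission of each library, the parotid score as a covariate, leaving the 50 most counted genes out of the scaling, no fold-change threshold, and a prior count of 5 for ratios.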

Additional observations from a re-analysis of the deposited data

Results flagged for a closer look

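Among 122 groups of 4 libraries (61 tested factors in 2 diets), 9 held a library whose gap to its nearest neighbour was larger, as a share of the range of the group, than Dixon's limit for 4 values. Chance alone passes this limit in about 1 in 20 groups. In AL replicate 4, the library with the largest total, 4 of the 9 occurred. Eef1e1 was at 1.57 CPM there, against 0.693 to 0.802 CPM in the other AL libraries, Eef1akmt1 at 3.25 CPM against 1.24 to 1.39, Eif3c at 154 CPM against 118 to 121, and Eif1b at 25.8 CPM against 37.9 to 40.2. Eef2k was at 16.4 CPM in AL replicate 2, below 19.9 to 20.3 CPM in the other AL libraries. In CR replicate 4, Eif4g2 was at 283 CPM against 189 to 202, and Eif4enif1 at 9.94 CPM against 6.32 to 6.86. Eif2s2 was at 295 CPM in CR replicate 3 against 200.1 to 209, and Eif2s3x at 9.13 CPM in CR replicate 1 against 6.32 to 6.44.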

How the results depend on the processing

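Eif4ebp1 was called under both other scalings, both other tests, both other filters, the scaling without the 50 most counted genes and the replicate block, and without a fold-change threshold it was still the only factor called. With the parotid score in the model the number of factors called was 0, and leaving out 1 library gave 0 to 1. The log2 fold change of Eif4ebp1 was 1.31 with that covariate and ran from 0.91 to 1.17 with 1 library left out. No factor was called lower under any setting. The median log2 fold change of the factors was 0.08 with upper-quartile factors and 0.30 with the covariate, and ran from 0.089 (without CR replicate 3) to 0.20 (without AL replicate 4) with 1 library left out. Between 37 and 44 factors were above 0 under every setting. Of the regulators outside the families, those called higher numbered 2 with the replicate block, 3 with DESeq2, 0 with the covariate and 0 to 2 with 1 library left out, against 1, and those called lower numbered 0 with the covariate, against 1. The differences in the 6 ratios kept their direction with a prior count of 5 and without each library, and none passed an adjusted p of 0.05.

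Libraries of both diets share replicate numbers, but the correlations of deviations between same-numbered libraries were 0.15, 0.08, 0.24 and 0.46, and AL replicate 3 correlated best with CR replicate 1 (0.32), so the numbers were not treated as pairing. With the replicate block, the median log2 fold change of the factors was 0.10, 10 were higher at an unadjusted p under 0.05, against 7, and Eif4ebp1 had a log2 fold change of 0.999 (adjusted p = 0.00672). With 13 and 7 counts, no difference was detectable at this depth for Eef1a2 and Eif5a2. The 5 genes listed at 0 were not compared, and the cause of their zeros was not tested.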

Other observations

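Eif4ebp2 was singled out after its values had been seen. Over the 8 libraries of both diets, its log2 CPM and the log2 total had a Pearson r of 0.83 (exact permutation p = 0.0111) and a Spearman rho of 0.88 (exact permutation p = 0.00724), which did not pass Benjamini-Hochberg adjustment over all 11211 genes tested (adjusted p = 0.157). Without AL replicates 3 and 4, the libraries whose totals were farthest from the median on the log2 scale, Pearson's r was 0.70. A rho at least as large in either direction was found for 4.62% of all genes tested and for 2 of the 61 factors, Eif4ebp2 and Eef1d. With both measures centred on the mean of each diet, a check added after seeing the data, Pearson's r was 0.83 (two-sided exact test over the 576 permutations within diets, p = 0.0226). Spearman's rho was 1.0 over the 4 AL libraries and 0.80 over the 4 CR libraries, given with no test.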
